A study of Mus musculus with 10 samples.

Results

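Small leucine-rich proteoglycans are secreted matrix proteins, and transcripts of 10 of them were followed here through muscle overload with and without a drug that blocks signalling by PDGF (platelet-derived growth factor). The genes were decorin (Dcn), biglycan (Bgn), asporin (Aspn), lumican (Lum), fibromodulin (Fmod), Prelp, keratocan (Kera), osteomodulin (Omd), osteoglycin (Ogn) and podocan (Podn). They were chosen by symbol in the array annotation. All 10 were found among the 22180 genes measured, and each was represented by its brightest probe set (the group of array probes read as a single value) with exactly 1 gene symbol.

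RNA came from the plantaris, a calf muscle, of male C57BL/6 mice (age not given in the sources used here). It was hybridised to Affymetrix Mouse Gene 2.1 ST arrays, and each array held equal amounts of RNA pooled from 4 muscles. The 5 groups had 2 pools each. The first had neither synergist ablation (removal of the muscles that share the work of the plantaris) nor inhibitor and is called no overload. The others had synergist ablation for 3 d or 10 d, without the inhibitor (called 3 d and 10 d overload) or with it (called 3 d and 10 d inhibitor). The labels do not name the inhibitor, and no group received it without overload. The labels leave unsaid whether both pools of a group were separate mice, so p-values here reflect pool-to-pool spread alone, which may be technical in part. Pools are numbered 1 and 2 as names only.

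These proteoglycans have a core of leucine-rich repeats, and most bind fibrillar collagen and set the spacing and width of its fibrils. Decorin, biglycan and asporin form class I, in which decorin carries a single chondroitin or dermatan sulphate chain, biglycan usually carries a pair and asporin has an aspartate-rich stretch and usually no chain. Lumican, fibromodulin, Prelp, keratocan and osteomodulin form class II, several of which carry keratan sulphate, and osteoglycin and podocan belong to classes III and V. In muscle they lie in the connective tissue around fibres and are made mainly by fibroblasts and tendon cells. Decorin and biglycan also bind growth factors such as TGF-beta, and decorin binds myostatin.

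Several of the genes are neighbours in the mouse genome. In the RefSeq annotation of GRCm38.p6, Dcn, Lum and Kera follow each other among protein-coding genes of chromosome 10, Aspn, Omd and Ogn do so on chromosome 13, and Prelp and Fmod on chromosome 1. Bgn lies on chromosome X and Podn on chromosome 4. RefSeq promoter windows (250 bases before to 50 after the gene start) were at hand for 8 of the 10 genes. Those of Bgn, Aspn and Kera are shown because these genes passed a test below; Lum also passed and has no entry. Capitals mark matches on either strand to TATAAA (the TATA box), TGANTCA (the AP-1 consensus), CATCTG (an E box of the scleraxis type) or CAGAC (a SMAD element).
Bgn promoter, chrX:73483351-73483650 (+ strand): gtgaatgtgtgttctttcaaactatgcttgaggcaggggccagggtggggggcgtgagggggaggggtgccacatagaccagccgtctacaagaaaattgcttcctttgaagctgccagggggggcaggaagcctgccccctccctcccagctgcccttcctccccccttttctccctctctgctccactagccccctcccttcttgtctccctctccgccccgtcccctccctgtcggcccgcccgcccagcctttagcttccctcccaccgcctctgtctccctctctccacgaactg
Aspn promoter, chr13:49544193-49544492 (+ strand): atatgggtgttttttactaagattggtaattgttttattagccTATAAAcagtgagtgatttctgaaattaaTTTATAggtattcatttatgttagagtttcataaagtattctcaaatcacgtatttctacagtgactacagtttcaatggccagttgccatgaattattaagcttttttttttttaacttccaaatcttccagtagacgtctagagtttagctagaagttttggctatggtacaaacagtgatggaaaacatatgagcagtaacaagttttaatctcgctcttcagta
Kera promoter, chr10:97606955-97607254 (+ strand): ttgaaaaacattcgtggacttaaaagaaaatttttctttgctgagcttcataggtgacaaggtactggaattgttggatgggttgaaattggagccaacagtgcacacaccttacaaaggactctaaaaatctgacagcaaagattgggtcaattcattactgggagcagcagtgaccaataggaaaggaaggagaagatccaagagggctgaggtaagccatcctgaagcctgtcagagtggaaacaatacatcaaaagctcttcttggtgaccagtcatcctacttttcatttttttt
The windows differed in base composition. That of Bgn was 63.7% G and C, that of Kera 41.0% and that of Aspn 31.0%, against a median of 52.7% over 32851 RefSeq promoter windows of the same length. Aspn held TATAAA at positions -207 and -178 from the gene start, and the windows of Bgn and Kera held none of the 4 motifs. Over the 8 genes with a window, TATAAA was found for 2 (Aspn and Ogn), CATCTG for 2 (Fmod and Podn), CAGAC for 3 (Fmod, Prelp and Podn) and TGANTCA for 0. Over all windows these motifs were found in 13.6%, 17.2%, 49.6% and 7.81%, which are shares per window and not per gene. Podn had 2 windows, with CATCTG in the first and CAGAC in the other. No match overlapped a match to another of the motifs.

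Values are log2 expression as deposited, where a difference of 1 is a 2-fold change, and levels of different genes are not compared because each probe set has its own sensitivity. The median probe set of an array was at 2.40 to 2.45. Omd, at 1.61 to 3.29 in the 10 pools, lay around these medians, so its values may be mostly background. The other 9 genes were at 4.04 or higher in every pool. The muscle actin Acta1 was between 12.22 and 12.37 in all pools. Pools of a group correlated over all genes at 0.989 to 0.992. A change was called at an adjusted p under 0.05 in limma (Benjamini-Hochberg over the 22180 genes), and values after ± on changes are standard errors from that fit.

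**Figure D1:**
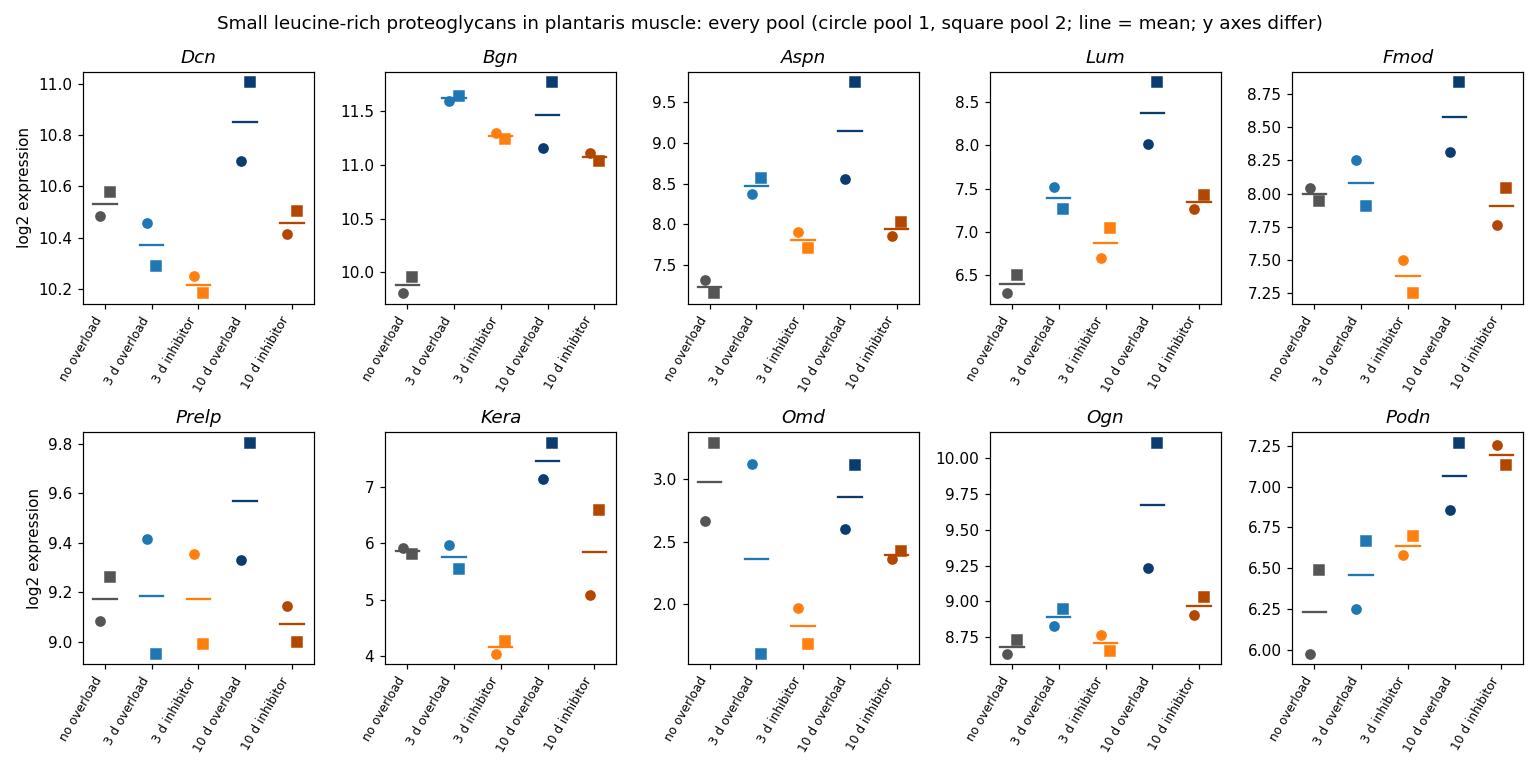
Log2 expression of the 10 genes in each of the 5 groups, with a panel and a y axis of its own for each gene. Circles are pool 1, squares pool 2 and lines the mean of 2 pools; in 10 d overload, pool 2 (square) lies above pool 1 in all 10 panels.

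The first question was how 3 d of overload affected these transcripts. Biglycan, asporin and lumican rose, and the other 7 genes did not pass. Biglycan, a matrix proteoglycan that can also signal through Toll-like receptors when released, was at 9.80 and 9.96 without overload and at 11.60 and 11.65 after 3 d of overload. Both overloaded pools were far above both controls, by 3.35-fold (log2 1.74 ± 0.19, limma adjusted p = 7.25e-04). Asporin, which binds collagen and TGF-beta, was at 7.31 and 7.15 without overload and at 8.37 and 8.57 with it. The pools did not overlap and differed by 2.36-fold (log2 1.24 ± 0.32, limma adjusted p = 0.0302). Lumican, a regulator of collagen fibril width, was at 6.29 and 6.50 without overload and at 7.52 and 7.26 with it, again without overlap (log2 0.997 ± 0.24, limma adjusted p = 0.0228). Of all 22180 genes, 17.5% were called in this comparison and 9.31% were called higher. Without regard to the test, 4 of the 10 genes lay above both controls and 1 below, against 25.1% and 30.7% of all genes. The members' median change was 0.14, against -0.04 over all genes. Setting arrays to a common median over genes moved the latter to -0.23 and the called genes from 2066 higher and 1815 lower to 1567 and 3295, and the 3 calls held.

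The calls of asporin and lumican at 3 d rested on every pool of the comparison. Leaving out either pool of no overload or of 3 d overload took asporin to adjusted p = 0.0892 to 0.136 and lumican to 0.0570 to 0.133, while their changes stayed between 1.14 and 1.34 and between 0.87 and 1.12. Biglycan passed without any single pool of the 10 (log2 1.67 to 1.82). A second, dimmer probe set of biglycan gave 2.42 ± 0.28.

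Decorin, the best-known member and an antagonist of TGF-beta and several growth factor receptors, was not higher at 3 d. It was at 10.48 and 10.58 without overload and at 10.46 and 10.29 after 3 d, and both overloaded pools lay below both controls by a small margin (log2 -0.16 ± 0.15, 95% interval -0.50 to 0.18, limma adjusted p = 0.559). Osteoglycin, which acts in fibril assembly, was at 8.64 and 8.73 without overload and 8.83 and 8.95 with it (0.21 ± 0.25). Fibromodulin, Prelp, keratocan and podocan overlapped between the groups, with changes from -0.10 to 0.22. Omd, the dimmest, gave -0.61 ± 0.44, with 3.12 in pool 1 and 1.61 in pool 2 of 3 d overload.

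After 10 d of overload the same 3 genes were higher than without overload, and every other gene except Omd lay above both controls in both pools. Lumican was at 8.01 and 8.73, 3.93-fold above no overload (log2 1.97 ± 0.24, limma adjusted p = 4.99e-03). Asporin was at 8.55 and 9.75, 3.79-fold above (1.92 ± 0.32, limma adjusted p = 0.0154). Biglycan was at 11.16 and 11.77, 3.00-fold above (1.59 ± 0.19, limma adjusted p = 4.99e-03). Over all genes, 5.13% were called and 3.9% were called higher. The members' median change was 0.91, against -0.04 over all genes, and 9 of 10 lay above both controls without overlap, against 22.1% of all genes.

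Some of the genes missed the threshold at 10 d by a small margin. Keratocan, a keratan sulphate proteoglycan best known from cornea and also made in tendon, was at 5.91 and 5.81 without overload and at 7.12 and 7.78 after 10 d (log2 1.59 ± 0.43, 95% interval 0.61 to 2.57, limma adjusted p = 0.0726). Osteoglycin was at 9.23 and 10.11 (0.99 ± 0.25, adjusted p = 0.0576 in limma). Podocan, which restrains smooth muscle growth, was at 5.98 and 6.49 without overload and at 6.86 and 7.27 after 10 d (0.83 ± 0.23, limma adjusted p = 0.0737). Fibromodulin (0.58 ± 0.21), Prelp (0.40 ± 0.22) and decorin (0.32 ± 0.15) had smaller differences that did not pass either. With an intensity trend in limma's variance model, keratocan, osteoglycin and podocan passed as well, which made 6 of 10. With the dim-gene filter osteoglycin and podocan passed in addition, and with only the 4 arrays of the comparison in the fit, 0 passed (31 over all genes). Without 10 d overload pool 1, osteoglycin was at 1.42, and without pool 2 it was at 0.55. Asporin ranged from 2.52 without pool 1 to 1.32 without pool 2 and lost its call without either no overload pool (limma adjusted p = 0.0678 and 0.0694). Biglycan and lumican kept theirs without any single pool.

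**Figure D2:**
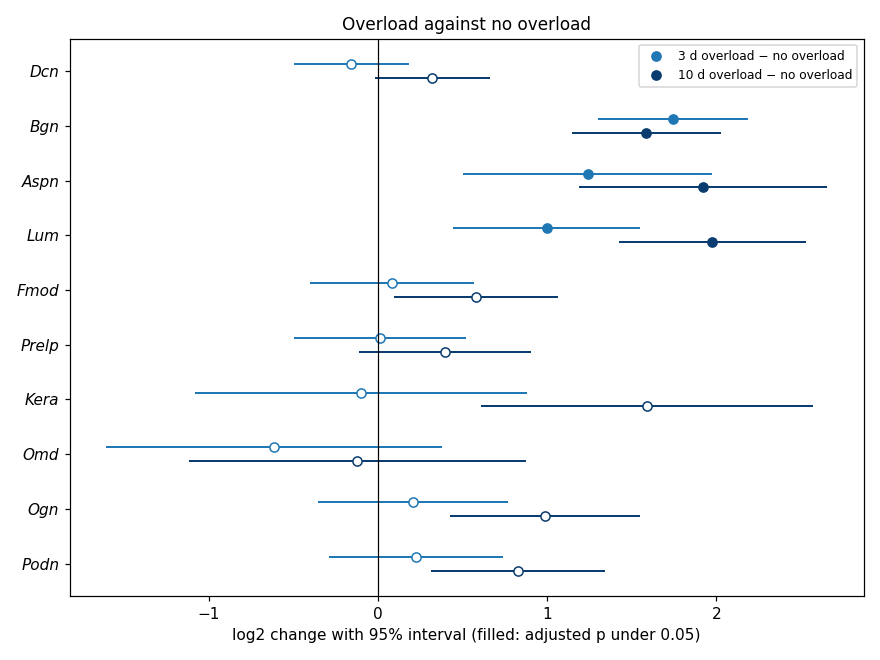
Log2 change of each gene after 3 d (lighter) and 10 d (darker) of overload against no overload, with 95% intervals from limma over 10 arrays; filled points passed an adjusted p of 0.05. Biglycan, asporin and lumican have filled points at both times, and all but Omd lie right of 0 at 10 d.

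The overload times were also compared directly. No gene of the 10 passed between 10 d and 3 d of overload in limma, and 6.08% of all genes were called in either direction. An unadjusted p under 0.05 in limma was reached by 6 of the 10, against 4599 of all genes. The largest differences were those of keratocan (log2 1.69 ± 0.43, limma adjusted p = 0.0572) and lumican (0.98 ± 0.24, limma adjusted p = 0.0527), each with both 10 d pools above both 3 d pools. In all, 6 genes had such pools, against 24.6% of all genes. Osteoglycin differed by 0.78 ± 0.25, asporin by 0.68 ± 0.32 with overlapping pools, and decorin by 0.48 ± 0.15 (10.70 and 11.005 at 10 d, the highest decorin values of the 10 pools). Biglycan gave -0.16 ± 0.19, with the 3 d pools inside the range of the 10 d pools. Among the class I genes, the group with the highest mean was 3 d overload for biglycan (11.62, against 11.47 at 10 d, a gap within the 10 d spread) and 10 d overload for asporin and decorin. With a trend fitted, decorin, lumican, keratocan and osteoglycin passed. With arrays at a common median over probe sets, lumican passed. Without 10 d overload pool 1, asporin was at 1.28, lumican at 1.34 and osteoglycin at 1.22. Without pool 2 they were at 0.09, 0.62 and 0.34.

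The second question was how the PDGF inhibitor changed these transcripts during overload. At 3 d, none of the 10 genes passed in limma, and neither did any other gene (0% called). At an unadjusted p under 0.05 in limma there were 2, fibromodulin and keratocan, against 2011 of all 22180 genes. With an intensity trend, 0 of the 10 passed. Keratocan was at 5.96 and 5.54 in 3 d overload and at 4.04 and 4.27 in 3 d inhibitor pools, which lay below every other pool of the series. The difference was 3.03-fold (log2 -1.60 ± 0.43, 95% interval -2.58 to -0.62, limma adjusted p = 0.335) and was the 6th most negative of the 22180 genes. Fibromodulin, which binds collagen beside lumican and is abundant in tendon, was at 8.25 and 7.91 against 7.50 and 7.25 (log2 -0.70 ± 0.21, limma adjusted p = 0.377). In all, 7 genes were lower in both inhibitor pools than in both overload pools, against 17.7% of all genes, and 0 were higher in both.

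At 10 d the inhibitor pools were lower for 9 of the 10 genes without overlap, against 19.5% of all genes, and podocan was the exception. Again none passed in limma, and 0.104% of all genes were called. An unadjusted p under 0.05 in limma was reached by 6 of the 10, against 2352 of all genes. Keratocan was at 7.12 and 7.78 in 10 d overload and at 5.08 and 6.59 with the inhibitor (log2 -1.61 ± 0.43, limma adjusted p = 0.226). Asporin was at 8.55 and 9.75 against 7.85 and 8.02, 2.32-fold lower (-1.21 ± 0.32, limma adjusted p = 0.226). Lumican was at 8.01 and 8.73 against 7.26 and 7.43, 2.03-fold lower (-1.02 ± 0.24, limma adjusted p = 0.194). Osteoglycin gave -0.70 ± 0.25, fibromodulin -0.67 ± 0.21, Prelp -0.50 ± 0.22, and biglycan and decorin -0.39 each. Podocan was at 6.86 and 7.27 without and at 7.26 and 7.14 with the inhibitor (0.13 ± 0.23, 95% interval -0.38 to 0.65). The members' median was -0.58, against 0.01 over all genes.

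Values at 10 d moved with single pools. The difference of keratocan was -0.86 without 10 d inhibitor pool 1 and -2.37 without pool 2 of that group, and -1.94 and -1.29 without pools 1 and 2 of 10 d overload, and it passed in none of these. Biglycan gave -0.70 without 10 d overload pool 1 and -0.09 without pool 2. Without 10 d overload pool 1, asporin (log2 -1.81, limma adjusted p = 0.0146), lumican (-1.38, 0.0436) and osteoglycin (-1.14, 0.0340) passed as lower with the inhibitor. Without pool 2 their differences were -0.62, -0.66 and -0.27, with adjusted p = 0.394, 0.432 and 0.727. With a trend in the variance model, lumican passed.

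Averaged over both times, 9 of 10 genes had a lower level with the inhibitor. Again none passed in limma, and 0.289% of all genes were called. An unadjusted p under 0.05 in limma was reached by 7 of the 10, against 2817 of all genes. Keratocan had the largest difference (log2 -1.61 ± 0.30, limma adjusted p = 0.0750), the 5th most negative of all genes. It was followed by asporin (-0.94 ± 0.23), lumican (-0.77 ± 0.17, limma adjusted p = 0.115) and fibromodulin (-0.69 ± 0.15, limma adjusted p = 0.110). These 4 genes passed when a trend was fitted. Without 10 d overload pool 1, asporin, lumican, fibromodulin and osteoglycin were at -1.23, -0.95, -0.82 and -0.66. Without 10 d overload pool 2 these genes were at -0.64, -0.59, -0.56 and -0.22. Keratocan was at -1.98 without 10 d inhibitor pool 2 and at -1.23 without pool 1 of that group. A second probe set of fibromodulin gave -0.56 ± 0.19, and that of Prelp, near the array medians, gave 0.36 ± 0.12 against -0.25 ± 0.16 in the probe set used, so the probe sets of Prelp disagree in sign. The inhibitor effect was not shown to differ between 10 d and 3 d for any of the 10 genes in limma. Of all genes, 0% were called. An unadjusted p under 0.05 in limma was reached by 0 of the 10, against 1434 of all genes. The difference of effects was -0.02 ± 0.61 for keratocan, with a 95% interval of -1.40 to 1.37, and -0.55 ± 0.46 for asporin. These intervals are wide, so effects of unequal size at the 2 times are not excluded.

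**Figure D3:**
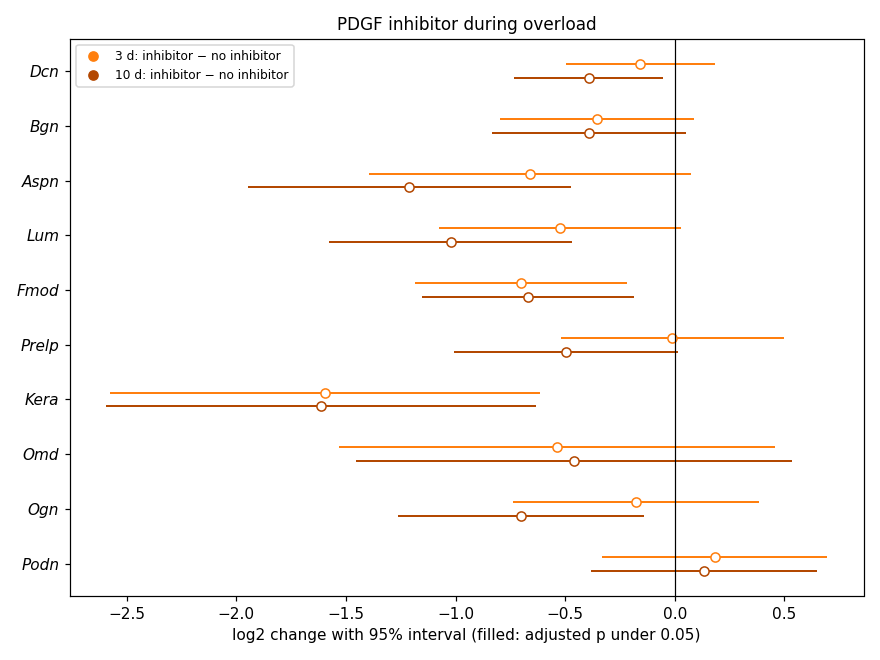
Log2 difference between overload with and without the PDGF inhibitor for each gene at 3 d (lighter) and 10 d (darker), with 95% intervals from limma over 10 arrays; open points did not pass an adjusted p of 0.05. All points are open; keratocan lies farthest left at both times (-1.60 and -1.61), and podocan is right of 0 at both.

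Set against muscle without overload, inhibited overload gave another pattern for keratocan than for biglycan. Biglycan was still raised, at 11.30 and 11.24 at 3 d (log2 1.39 ± 0.19, limma adjusted p = 2.74e-03) and at 11.11 and 11.03 at 10 d (1.19 ± 0.19, limma adjusted p = 0.0245). Keratocan fell below the level without overload at 3 d (-1.70 ± 0.43, limma adjusted p = 0.0321) and gave -0.02 ± 0.43 at 10 d. These were the only calls among the 10 genes (1 higher and 1 lower at 3 d, 1 higher at 10 d). Over all genes, 14.2% were called at 3 d (7.71% higher and 6.51% lower) and 1.56% at 10 d (1.13% higher). Pools without overlap were higher for 4 genes and lower for 4 at 3 d, against 26.8% and 26.4% of all genes, and higher for 5 and lower for 1 at 10 d, against 21.5% and 25.1%. The 3 d call of keratocan was lost on leaving out any single pool of its 2 groups (adjusted p up to 0.151), and so was the 10 d call of biglycan (adjusted p up to 0.176).

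Lumican and asporin, which rose with overload alone, did not pass in inhibited muscle. In the main fit neither passed for the inhibitor against overload at either time, so their rise was not shown to be smaller with it. Lumican was at 6.69 and 7.04 at 3 d and at 7.26 and 7.43 at 10 d, above both controls (0.95 ± 0.24 at 10 d, limma adjusted p = 0.102). With an intensity trend, lumican passed at 10 d. Asporin was 0.58 ± 0.32 and 0.71 ± 0.32 above no overload, and its pools too lay above both controls at both times. Podocan was 0.96 ± 0.23 above at 10 d (limma adjusted p = 0.0801). These comparisons share the no overload pools with the overload comparisons, and the inhibitor effects share the overload pools with them, so they are not independent.

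The 2 pools of 10 d overload were unequal for the whole family. Pool 2 was above pool 1 in all 10 genes, by 0.31 (decorin) to 1.19 (asporin), with a median of 0.57, whereas the median over all genes was -0.01. In the other 4 groups the median gap of the 10 genes between pools lay between -0.21 and 0.12. Pool 2 of 10 d overload also held aggrecan (Acan), the large proteoglycan of cartilage and fibrocartilage, at 6.06, against at most 2.31 in the other 9 pools. Comp, a matrix protein of cartilage and tendon, was at 7.08 there and at 5.89 in pool 1. Pool 1 of 3 d overload stood apart in another way, with the bone sialoprotein gene Ibsp at 6.18 (at most 1.61 in 8 of the others) and the bone marrow granulocyte gene Elane at 5.21 (at most 1.75 elsewhere). Decorin, lumican, fibromodulin, Prelp, keratocan and Omd were higher in that pool than in its partner, by 0.17 to 1.51, the largest gap being that of the dim Omd. The other 4 genes (biglycan, asporin, osteoglycin and podocan) were higher in the partner, pool 2, as were 48.9% of all genes. The part of such tissue in the results above was not tested. Leaving out pool 1 of 3 d overload left the 3 d changes of biglycan, asporin and lumican at 1.77, 1.34 and 0.87. Leaving out pool 2 of 10 d overload left their 10 d changes at 1.28, 1.32 and 1.62. The inhibitor differences at 10 d then shrank, to -0.09 for biglycan, -0.62 for asporin, -0.66 for lumican and -0.27 for osteoglycin. Such fits keep a single pool in the group, so only sizes of change are given here.

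Some marker genes of tendon cells and fibroblasts also passed in the overload comparisons. Over all genes, 9.31% were called higher at 3 d and 3.9% at 10 d, and 17.5% and 5.13% in either direction. For 3 d inhibitor against no overload, 7.71% were called higher and 6.51% lower. In bulk muscle RNA, more cells of a type and more transcript per cell cannot be told apart. Of 6 tendon markers, Tnmd, Thbs4, Scx and Cpxm2 rose at 10 d, and Scx and Thbs4 at 3 d. Their summed level on the linear scale was 651 to 713 without overload, 1945 to 2201 at 3 d, 1838 to 2064 at 3 d with the inhibitor, 1938 to 3038 at 10 d and 1576 to 1638 at 10 d with it. The sum is dominated by the brightest gene, Thbs4. The median change of the 6 markers against no overload was 0.14 at 3 d and 1.08 at 10 d, and with the inhibitor it was -0.10 at 3 d (2 higher, 2 lower) and 0.44 at 10 d. Tnmd gave 0.0032 ± 0.38 at 3 d. Of 10 measured fibroblast markers, 4 rose and 2 fell at 3 d and 7 rose at 10 d. Their sum was 1640 to 1677 without overload, 2178 to 2394 at 3 d, 1839 to 1975 at 3 d with the inhibitor, 2559 to 3416 at 10 d and 1918 to 1956 at 10 d with it. Of 7 cartilage and bone markers, 0 passed in any of the 9 comparisons in limma. Col2a1, which defines hyaline cartilage, was at 2.27 to 3.65, and the osteoblast genes Bglap and Sp7 were at or below 1.65 in every pool. All 8 macrophage markers rose at both overload times. Of 7 muscle fibre, 5 endothelial and 5 pericyte markers, 1 each fell at 3 d and 0 passed at 10 d in limma. The share of any cell type in the proteoglycan changes was not tested.

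**Figure D4:**
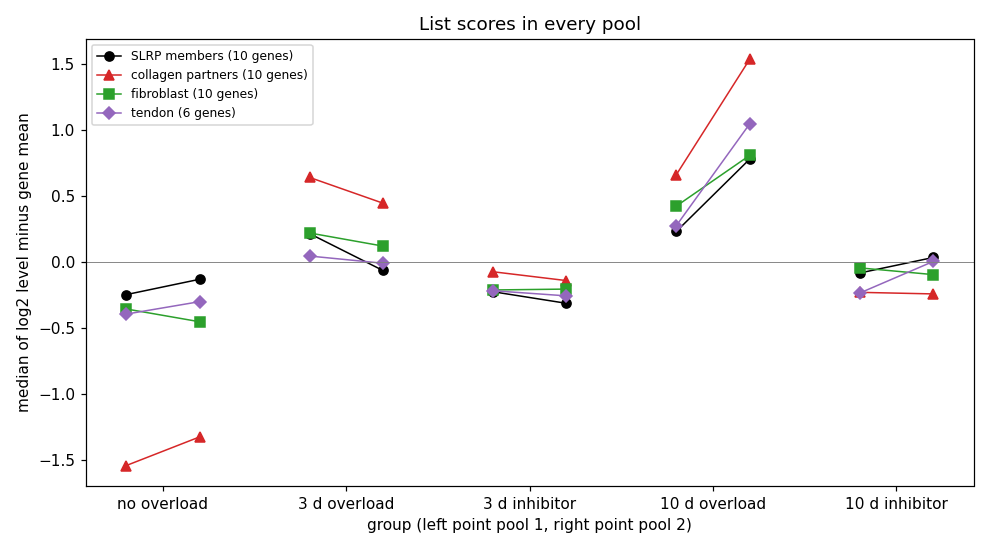
Median, over the genes of a list, of each gene's log2 level minus its mean over 10 arrays, for the 10 proteoglycans, 10 collagens, 10 fibroblast markers and 6 tendon markers in every pool. Pool 2 of 10 d overload is highest for all 4 lists; the collagens are lowest without overload, and the lowest proteoglycan value is that of pool 2 at 3 d with the inhibitor (-0.31).

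The 10 genes did not share a single pattern. Over the 10 arrays, Pearson correlations between them ran from -0.31 (biglycan and the dim Omd) to 0.94 (fibromodulin and keratocan), with a median of 0.63 over 45 pairs. These values describe arrays that share groups and pools. Decorin followed fibromodulin (0.92) and keratocan (0.91), and asporin followed lumican (0.93), while decorin and biglycan, both of class I, had a correlation of 0.03. For deviations of pools from their group means, decorin and biglycan had a correlation of 0.78. The median of these correlations over the 45 pairs was 0.60, with 42 above 0. Of the adjacent pairs in the genome, Lum and Kera had a correlation of 0.69, Prelp and Fmod 0.68, and Dcn and Lum 0.67. Omd and Ogn had 0.34, and Aspn and Omd 0.10, but the values of Omd may be mostly background. Aspn and Ogn, which lie on either side of the dim Omd, had a correlation of 0.90.

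The closest patterns among 9074 other named genes with a mean level of at least 4 also differed by member. They were picked as the highest of 9074 correlations over 10 arrays, and even the dim Omd reached 0.91. High values are therefore expected from the search alone, and the names are descriptive. Keratocan and fibromodulin shared a neighbour in Tnmd, tenomodulin, a membrane glycoprotein of tendon cells (Pearson correlation over 10 arrays 0.95 and 0.93). Tnmd was at 5.89 and 6.00 without overload, 6.12 and 5.77 at 3 d, 4.83 and 4.29 at 3 d with the inhibitor, 8.03 and 9.12 at 10 d and 6.04 and 6.86 at 10 d with it. Its mean inhibitor effect lay just past the threshold (log2 -1.76 ± 0.27, limma adjusted p = 0.0499). Tnmd was picked here for its likeness to keratocan over these same arrays, so its fall is not independent of that of keratocan. Biglycan was closest to Postn, periostin, a matricellular protein of loaded connective tissue (0.99), then Map1b and Elovl5. Asporin was closest to Plxdc2, Thbs2 and Lrrc49 (0.98 each), and lumican to Adamts12, Colec12 and Glg1 (0.97 to 0.98). Decorin was closest to Ccn3, Gask1b and Fgfr1 (0.95 to 0.97), and osteoglycin to Mtch1, Angptl1 and Ptn (0.97 to 0.98). After Tnmd, keratocan was closest to Itm2a and Ptx4, and fibromodulin was closest to Col11a1 and, behind Tnmd, Taok2. Podocan was closest to Prr12, Dync1li2 and Fst (0.93 to 0.95). Prelp (Cacna1c, Smo and Cpne3) and Omd (Ccar2, Yipf4 and Ptpa) had the lowest best correlations of the 10 genes, 0.89 and 0.91.

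Of 7 further measured family members, 4 (Epyc, Optc, Nyx and Podnl1) and Chadl were below 2.5 in every pool. Chondroadherin (Chad), a cartilage and tendon protein without a sulphate chain, was at 7.53 and 7.76 without overload and at 5.47 and 5.33 at 3 d with the inhibitor. It fell 4.75-fold between these groups (log2 -2.25 ± 0.40, limma adjusted p = 7.60e-03), and was at 7.68 and 6.30 at 3 d without the inhibitor. Ecm2, the neighbour of Aspn, was 0.80 ± 0.16 higher at 10 d than at 3 d of overload (limma adjusted p = 0.0233). In no other comparison of the 9 did a gene of this list pass.

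Enzymes that build the sugar chains rose in part. The shares called higher over all genes were 9.31% at 3 d and 3.9% at 10 d. Of 20 measured linker and chondroitin or dermatan sulphate enzymes, 7 were higher and 1 lower at 3 d, and 4 were higher at 10 d (median 0.53 and 0.45). Dse, the epimerase that turns chondroitin into dermatan sulphate, was 3.71-fold higher at 3 d (log2 1.89 ± 0.13, limma adjusted p = 1.26e-04) and 2.31-fold higher at 10 d. Averaged over both times, Dse fell by 0.81 on the log2 scale with the inhibitor (± 0.09, limma adjusted p = 0.0218), and it was the only gene of the 6 pathway lists called for that effect. Csgalnact1, which starts the chondroitin chain, was raised by 1.38 ± 0.28 at 3 d, and the chain polymerase Chsy1 by 0.77 ± 0.15 at 3 d and 0.74 ± 0.15 at 10 d. Of 8 keratan sulphate enzymes, only B4galt1 rose at 3 d (0.58 ± 0.12), a count near the share of all genes. None passed at 10 d (median 0.05).

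Collagens that these proteoglycans bind rose more broadly. Of all genes, 9.31% were called higher at 3 d and 3.9% at 10 d of overload, and 17.5% and 5.13% in either direction. Of 10 collagen genes, 9 were higher at each overload time, with a median of 1.94 at 3 d and 2.60 at 10 d, led by Col3a1 (log2 3.02 and 3.37). With the inhibitor, 6 passed as higher at 3 d and 3 at 10 d against no overload, where 7.71% and 1.13% of all genes did. None of the 10 passed for the inhibitor against overload at either time in limma (medians -0.64 and -1.24). Of 11 proteases and propeptide processing genes, 6 rose at 3 d and 5 at 10 d. Among these, Bmp1, which trims the propeptide of biglycan, rose by 1.08 ± 0.25 and 1.52 ± 0.25, and the membrane protease Mmp14 by 2.28 ± 0.36 and 3.15 ± 0.36. Of 12 growth factor partners and receptors, Tgfb1 rose by 1.92 ± 0.17 at 3 d and 1.10 ± 0.17 at 10 d, the endocytic receptor Lrp1 by 0.97 ± 0.18 and 1.11 ± 0.18, and myostatin (Mstn) fell by 1.35 and 1.17 on the log2 scale. Tlr4, a receptor of released biglycan and decorin, rose at 3 d (1.89 ± 0.20), and Egfr, a receptor that decorin binds, at both times (0.65 ± 0.18 and 1.08 ± 0.18).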

How the data were processed

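Expression was measured in 10 pooled RNA samples on Affymetrix Mouse Gene 2.1 ST array strips. The authors deposited a table of log2 values for 41345 probe sets; per the submitters' processing notes, RMA, oligo and limma were used, with no versions, and with the genome build not given in the sources used here. RMA compresses changes of dim genes and does not measure a shift shared by most transcripts. Probe sets with exactly 1 symbol in the platform annotation (23521) gave 22180 genes, each read by its brightest probe set. Dim genes were kept.

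Genes were fitted with limma 3.58.1 (R 4.3.3), 1 coefficient per group over 10 arrays (5 residual and 3.58 prior degrees of freedom), for 9 comparisons; the call threshold was 0.05 after Benjamini-Hochberg adjustment over all genes. The steps were tested on simulated data. Precision is limited by 2 arrays per group. The gene members and lists were chosen with earlier results of these data known. The text names all 10 members, up to 4 passing genes with the largest change per list and comparison, and the 3 closest patterns per member (mean level of at least 4); other list genes were named after their values were seen. Alternatives were a common array median, an intensity trend, only the groups compared, the mean of probe sets, a filter on dim genes, and each array left out.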

Additional observations from a re-analysis of the deposited data

How the results depend on the processing

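No paired analysis was possible because the labels give the pools no replicate numbers shared between groups. Of 1440 values of single genes under other settings, 1371 kept their status, 22 lost a call, 47 gained a call and 0 changed sign with a call. Most of the 1371 were not called in either fit. Fits without an array keep a single pool in its group, so no result is drawn from calls gained in them. Sign changes between uncalled values were not counted as reversed. For example, the mean inhibitor effect of Prelp was -0.25 in the main fit and reached 0.05 in another setting. Counts of called genes among the 10 moved as follows. With an intensity trend they were 6 for 10 d overload against none, 4 for 10 d against 3 d, 1 for the inhibitor at 10 d, 4 for its mean effect, and 4 and 3 for 3 d and 10 d inhibitor against no overload. With the dim-gene filter they were 5 for 10 d against none and 2 for 10 d against 3 d. With only the groups compared they were 0 for 10 d overload and 0 for 10 d inhibitor against none. At a common median over probe sets 1 gene passed for 10 d against 3 d, and 2 at a common median over genes, a setting added after the data were seen. With the latter, fibromodulin also passed as lower for 3 d inhibitor against none, which made 3 genes there in place of 2. That last setting moved the median change of all genes from -0.04 to -0.23 at 3 d and from -0.04 to -0.21 at 10 d and turned the split of calls at 3 d from 2066 higher and 1815 lower to 1567 and 3295, and at 10 d from 865 and 273 to 678 and 896; the 3 calls at each time held. It took the split from 5 and 18 to 7 and 10 for the inhibitor at 10 d, from 14 and 50 to 21 and 31 for its mean effect, and from 1711 and 1443 to 1315 and 1991 for 3 d inhibitor against none. For 10 d inhibitor against none it went from 250 and 95 to 224 and 137.

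Without single arrays the counts ran from 1 to 3 (3 d against none), 2 to 4 (10 d against none), 0 to 3 (10 d against 3 d), 0 to 3 (inhibitor at 10 d), 0 to 4 (mean effect), 1 to 3 (3 d inhibitor against none) and 0 to 2 (10 d inhibitor against none). Over all genes the main counts of 3881, 1138, 1348, 23, 64, 3154 and 345 fell in these omissions to as few as 2146, 259, 218, 0, 0, 1343 and 31. The inhibitor counts at 10 d and for the mean effect also reached 180 and 341, and the 0 of the inhibitor at 3 d and of the difference between times reached 7 and 14. With a trend, 2097 genes passed for 10 d against none, 2450 for 10 d against 3 d, 180 and 465 for the inhibitor at 10 d and its mean effect, 15 for the inhibitor at 3 d and 1069 for 10 d inhibitor against none; with only the groups compared, 31, 202, 3 (inhibitor at 10 d), 1933 and 102 (3 d and 10 d inhibitor against none). The dim-gene filter gave 1769, 2098, 162 (mean effect) and 666 (10 d inhibitor against none).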
